A study of Mus musculus with 5 samples.

Results

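Apoe, the gene of apolipoprotein E, was examined in the kidney together with 9 genes that make, load, empty or sense lipoproteins. The 10 genes were taken by symbol from a table of 21878 genes, and all 10 were found. They are the apolipoprotein genes Apoe, Apoc1, Apod and Apom, the lipase gene Lpl, the lipid exporter genes Abca1 and Abcg1, the nuclear receptor genes Nr1h2 and Nr1h3, and the endocytic receptor gene Lrp1. The set was chosen by the diosmetin and vehicle levels of Apoe, which stood out in that comparison, and by the known roles of the other genes, with their levels also known, so the members' values in it are a description and no test of them is given. The question was whether Apoe moved alone or with its partners.

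The libraries came from kidneys of NZB/NZW F1 mice, the offspring of NZB/BINJ females and NZW/LacJ males, a cross used as a model of lupus because it develops autoantibodies and kidney inflammation. Treated mice were given the flavone diosmetin by intraperitoneal injection, 50 mg/kg on alternate days over 6 weeks (3 libraries), and controls were given vehicle on the same schedule (2 libraries). No source used here gives the age and sex of the mice or the makeup of the vehicle, nor is it said that each library came from a separate animal, so the spread between libraries may be technical. Levels are FPKM, fragment counts that the authors scaled for transcript length and library size, so they can be compared between genes.

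Apolipoprotein E sits on the surface of lipoproteins and is the ligand by which endocytic lipoprotein receptors, Lrp1 among them, take the particles into cells. The sterol exporters encoded by Abca1 and Abcg1 load cholesterol onto apolipoproteins and high density lipoprotein, and lipoprotein lipase removes triglyceride from circulating particles. Liver X receptors alpha (Nr1h3) and beta (Nr1h2) are sterol-sensing transcription factors that pair with retinoid X receptors. They raise transcription of Abca1 and Abcg1 in many cells and of Apoe, Apoc1 and Lpl in some, macrophages among them.

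Apoe and Abca1 are both known targets of these receptors, and the 150 bases before a start of each are shown. Whether these letters bear on the levels in the kidney libraries was not tested. They are from the RefSeq promoter set on GRCm38.p6, on the minus strand and written 5′ to 3′. The Apoe window is chr7:19699189-19699338 and the Abca1 window is chr4:53159896-53160045. Apoe has further starts in that set, at 19698621 and 19698398, whose windows were searched but are not printed. Capitals mark the closest match to a receptor element of the DR4 kind, a direct repeat of AGGTCA with any 4 bases between.
Apoe: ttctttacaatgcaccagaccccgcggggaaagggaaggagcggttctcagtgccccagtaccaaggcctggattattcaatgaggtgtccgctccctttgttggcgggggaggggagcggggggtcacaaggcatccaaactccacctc
Abca1: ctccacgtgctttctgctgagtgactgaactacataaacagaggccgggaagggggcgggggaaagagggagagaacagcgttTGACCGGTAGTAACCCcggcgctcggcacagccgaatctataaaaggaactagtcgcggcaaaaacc
The Abca1 match lies on the other strand, where it reads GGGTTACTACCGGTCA, and differs from the element at 3 of its 12 fixed letters. The RefSeq set held windows for 7 of the 10 genes, each from 250 bases before to 50 bases after a start, and both strands were searched. No window of Apoe, Apod, Apom, Nr1h2, Nr1h3 or Lrp1 held a match with 3 or fewer mismatches, a limit chosen after the matches were seen. Such a match was found in 21.9% of all 32851 windows. The letters alone do not tell whether the Abca1 match is a receptor site, which was not tested. Sites outside the windows were not searched, so a gene without a match may still have one.

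Apoe, Apoc1 (chromosome 7 from 19689481 to 19692660) and Nr1h2 (44549616 to 44553951) lie on chromosome 7, and Apom (35128997 to 35132050) and Abcg1 (31057675 to 31117988) on chromosome 17, by the GENCODE M21 annotation of GRCm38. Lpl lies on chromosome 8 from 68880491 to 68907448, Abca1 on chromosome 4 from 53030787 to 53159895, and Nr1h3 on chromosome 2 from 91184061 to 91202834. Lrp1 lies on chromosome 10 from 127538161 to 127621148 and Apod on chromosome 16 from 31296192 to 31314808. All 10 are annotated as protein-coding, and values refer to whole genes.

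**Figure D1:**
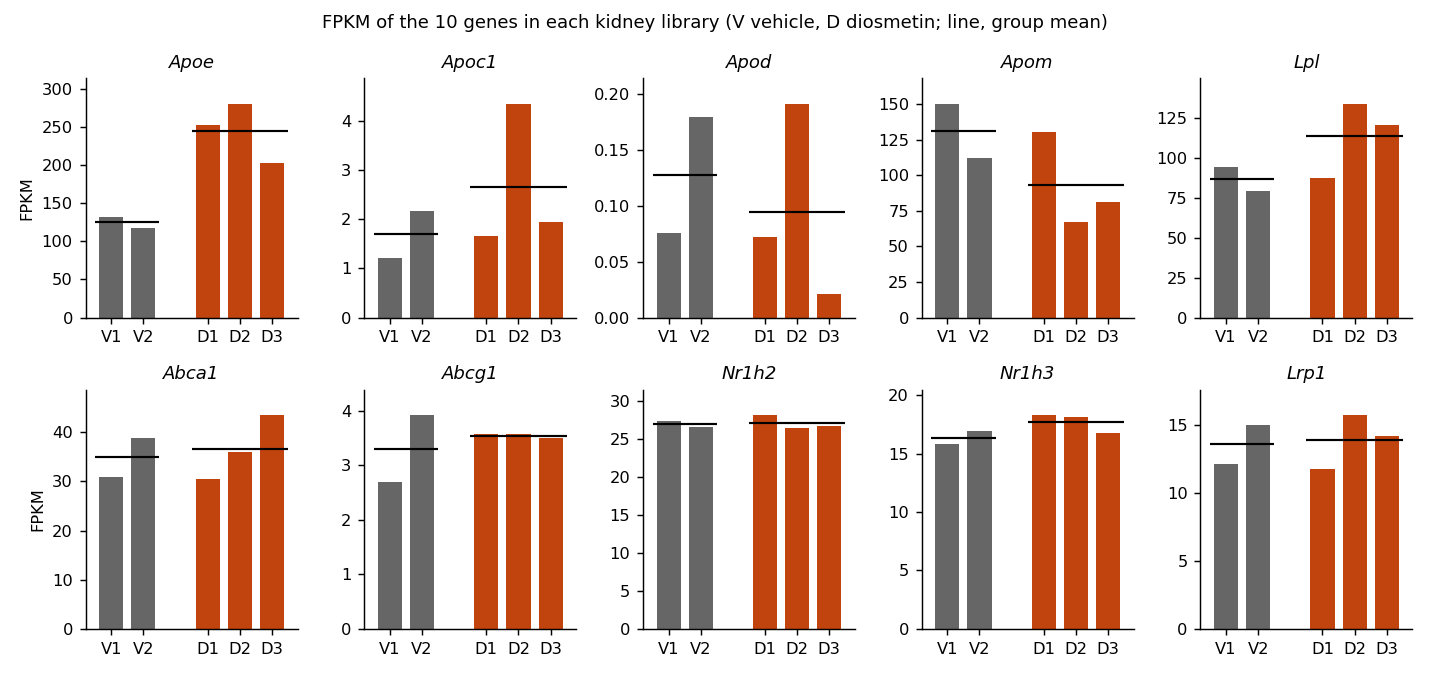
Bars show FPKM of each of the 10 genes in the vehicle libraries (V1 and V2, grey) and the diosmetin libraries (D1 to D3, orange), each panel with its own axis from 0, and lines mark group means. In the Apoe panel the diosmetin bars, at 203 FPKM or more, all stand above the vehicle bars, at 132 FPKM or less, while the groups overlap in the other 9 panels.

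Apoe (GeneID 11816, GRCm38 chromosome 7 from 19696109 to 19699188, minus strand) stood at 132 and 118 FPKM in vehicle replicates 1 and 2, and at 252, 280 and 203 FPKM in diosmetin replicates 1, 2 and 3. All 3 diosmetin libraries were above both vehicle libraries. In FPKM the gap between the groups was wider than the spread inside vehicle but narrower than that inside diosmetin. The means were 245 ± 39.1 FPKM (SD, n = 3) and 125 ± 9.86 FPKM (SD, n = 2), a ratio of 1.96. On the log2(FPKM + 1) scale the difference was 0.96 ± 0.15 (SE of the limma fit over all genes). Leaving out each library in turn gave log2 differences from 0.85 to 1.09. Apoe was also an abundant transcript: 98.4% of the 13290 genes tested had a lower mean level, and the estimated number of fragments behind its values was 7206 to 17146 per library.

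In the fit over all genes, 0 of 13290 genes (0%) passed an adjusted p of 0.05 with limma and Benjamini-Hochberg adjustment, and the smallest adjusted p was 0.738. Apoe is therefore not called. An unadjusted p under 0.05 was reached by 847 genes (6.37%, made up of 4.68% higher and 1.69% lower under diosmetin). The higher ones were 73.4% of these genes, against 50.5% after median-of-ratios scaling and 33.0% when vehicle replicate 1 was left out. Leaving out diosmetin replicate 2 gave 385 such genes and leaving out vehicle replicate 2 gave 1464. Group ranges were apart for 24.5% of the tested genes, 18.3% with diosmetin the higher and 6.17% with diosmetin the lower. Among all tested genes 11 had a larger log2 difference than Apoe, and 0 of these 11 were as abundant as Apoe. Few genes could be, since only 210 of the 13290 tested genes stood at or above the Apoe level.

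The other apolipoprotein genes did not share this separation. Apoc1 (GeneID 11812), which encodes a small apolipoprotein that hinders lipoprotein uptake, lies 3.45 kb from Apoe on the same strand. Its level was low, at 1.21 and 2.18 FPKM under vehicle and 1.66, 4.34 and 1.94 FPKM under diosmetin. Diosmetin replicate 2 stood above the other 4 libraries, and the other diosmetin libraries lay between the vehicle values. The log2 difference of 0.39 ± 0.33 (SE) became 0.08 when diosmetin replicate 2 was left out, 0.13 when vehicle replicate 1 was left out and 0.65 when vehicle replicate 2 was. An estimated 24.9 to 101 fragments per library stood behind these values.

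Apom (GeneID 55938), which encodes the high density lipoprotein component that carries sphingosine-1-phosphate and is made in liver and proximal tubule, had its mean in the other direction. It was at 150 and 112 FPKM under vehicle and 130, 67.3 and 81.0 FPKM under diosmetin. Diosmetin replicates 2 and 3 were below both vehicle libraries and replicate 1 was between them. The means were 131 ± 26.6 (SD, n = 2) and 92.9 ± 33.2 (SD, n = 3), with a log2 difference of -0.53 ± 0.28 (SE) that ran from -0.81 to -0.33 when each library was left out. Apoe over Apom, as a ratio of FPKM, was 0.878 and 1.05 under vehicle and 1.93, 4.16 and 2.50 under diosmetin.

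Apod (GeneID 11815), a lipocalin, was close to the limit of measurement, with 0.075 and 0.179 FPKM under vehicle and 0.072, 0.191 and 0.021 FPKM under diosmetin. The highest and the lowest library were both of the diosmetin group. These values stood for an estimated 6.07 and 18.2 fragments under vehicle and 7.09, 17.2 and 2.02 under diosmetin. It was the 1 member under the minimum mean of 0.5 FPKM, so 9 of the 10 members entered the fit.

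Lpl (GeneID 16956), the gene of lipoprotein lipase, was at 94.7 and 79.4 FPKM under vehicle and 87.4, 134 and 121 FPKM under diosmetin. Diosmetin replicates 2 and 3 stood above both vehicle libraries, and replicate 1 lay between them. The log2 difference was 0.37 ± 0.19 (SE), or 0.24 when either diosmetin replicate 2 or vehicle replicate 2 was left out. Thus Lpl was highest in the diosmetin libraries in which Apom was lowest, while diosmetin replicate 1 was high for Apoe but not for Lpl.

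The exporter genes lay close together in the groups. Abca1 (GeneID 11303) was at 30.9 and 38.9 FPKM under vehicle and 30.5, 36.0 and 43.4 FPKM under diosmetin, so that the lowest and the highest library were both of the diosmetin group. Its log2 difference was 0.06 ± 0.16 (SE), turning to -0.10 without vehicle replicate 1 and -0.06 without diosmetin replicate 3. Abcg1 (GeneID 11307) was at 2.69 and 3.92 FPKM under vehicle and 3.57, 3.57 and 3.50 FPKM under diosmetin. The vehicle libraries enclosed all 3 diosmetin values, and the log2 difference of 0.09 ± 0.14 (SE) became -0.11 without vehicle replicate 1 and 0.30 without vehicle replicate 2. Apoe over Abca1 was 4.26 and 3.03 under vehicle and 8.26, 7.77 and 4.66 under diosmetin, so diosmetin replicate 3 stood only a little above vehicle replicate 1 by this ratio.

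The nuclear receptor genes had the smallest standard errors of the 9 tested members. Nr1h2 (GeneID 22260) was at 27.3 and 26.6 FPKM under vehicle and 28.1, 26.4 and 26.7 FPKM under diosmetin, a log2 difference of 0.0043 ± 0.06 (SE) that was -0.05 after median-of-ratios scaling. Its libraries spanned a ratio of 1.06 within diosmetin and 1.03 within vehicle. Nr1h3 (GeneID 22259) was at 15.8 and 16.9 FPKM under vehicle and 18.3, 18.1 and 16.7 FPKM under diosmetin. Here 2 diosmetin libraries stood above both vehicle libraries and replicate 3 lay just below vehicle replicate 2. The log2 difference was 0.11 ± 0.07 (SE), with 0.06 when vehicle replicate 1 was left out and 0.06 after median-of-ratios scaling. Lrp1 (GeneID 16971) was at 12.2 and 15.0 FPKM under vehicle and 11.7, 15.7 and 14.2 FPKM under diosmetin, with a log2 difference of 0.03 ± 0.14 (SE). That value ran from -0.11 (vehicle replicate 1 left out) to 0.17 (vehicle replicate 2 left out), with 0.14 when diosmetin replicate 1 and -0.06 when diosmetin replicate 2 was left out, and was -0.02 after median-of-ratios scaling. For Nr1h2 and Lrp1 small changes in either direction lie within these standard errors, while the difference of Nr1h3 was larger than its standard error. Equal levels are therefore not shown.

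**Figure D2:**
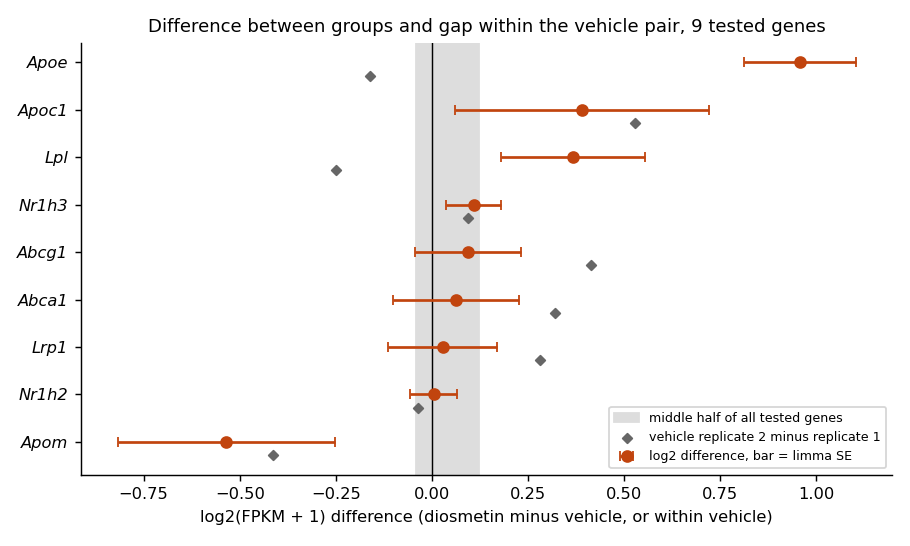
Orange points give the diosmetin minus vehicle difference in log2(FPKM + 1) for the 9 tested genes with the limma SE, grey diamonds give vehicle replicate 2 minus replicate 1, and the grey band is the interquartile range of all tested genes, from -0.04 to 0.12. Apoe, at 0.96, lies far outside the band and has a vehicle gap of -0.16, while Abca1, Nr1h2, Nr1h3, Lrp1 and Abcg1 lie inside it.

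Side by side, 8 of the 9 tested members had a log2 difference above 0 and 1 had a difference below 0, where 63.9% of all tested genes were above 0. Their median was 0.09 against 0.04 over all tested genes. Group ranges were apart for 1 of the 10 members, Apoe, beside 24.5% of all tested genes. In 4 of the 9 the difference between groups was larger than the gap between the vehicle libraries. Those 4 were Apoe, Apom, Lpl and Nr1h3, the last by a narrow margin (0.11 against 0.09). The share of all tested genes with such a difference was not counted, so this count has no background beside it. The difference of Apoe exceeded that of Apoc1 by 0.57 and that of Lpl by 0.59 on the log2 scale, and exceeded those of Abca1, Abcg1, Nr1h2, Nr1h3 and Lrp1 by 0.85 to 0.95. These gaps were not tested, since Apoe had been picked for its size.

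By level in FPKM, Apom and Apoe led the order under vehicle and overlapped each other, followed by Lpl, Abca1, Nr1h2, Nr1h3, Lrp1, Abcg1, Apoc1 and Apod. Under diosmetin Apoe led with no overlap with the next gene, and Lpl (114 ± 24.0 FPKM, SD, n = 3) and Apom overlapped behind it. Abca1, Nr1h2, Nr1h3 and Lrp1 kept separate ranges in that order within each group. Abcg1 and Apoc1 overlapped under diosmetin but not under vehicle.

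Genes near Apoe on chromosome 7 gave a view of the locus that did not depend on lipid function. Tomm40, a subunit of the mitochondrial import channel which lies 2.13 kb upstream of the Apoe start, was at 23.1 and 27.3 FPKM under vehicle and 28.0, 28.3 and 26.9 FPKM under diosmetin. Only diosmetin replicate 3 overlapped the vehicle range, and the log2 difference was 0.14 ± 0.09 (SE). Apoc4 was listed at 0 in all 5 libraries, and Apoc2 did not exceed 0.172 FPKM. Of the 14 tested neighbours besides Apoc1, 10 were higher and 4 lower, with a median log2 difference of 0.11 that was -0.07 without vehicle replicate 1. By limma 0 of them passed over all genes and 0 had an unadjusted p under 0.05. The largest log2 difference was that of Bloc1s3, a subunit of a lysosome biogenesis complex, at 0.26 ± 0.19 (SE).

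**Figure D3:**
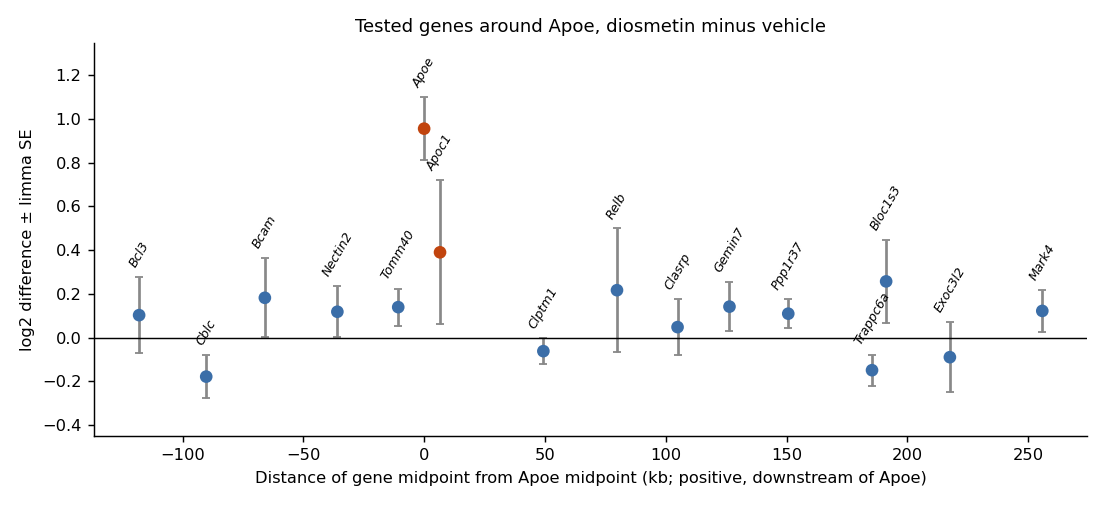
Points give the log2(FPKM + 1) difference, diosmetin minus vehicle, with the limma SE for Apoe and Apoc1 (orange) and 14 tested neighbours (blue), by distance of gene midpoints in kb. Apoe stands at 0.96 and Apoc1 at 0.39, and the neighbours lie between -0.18 and 0.26.

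Other apolipoprotein genes were few in the kidney: of 18 listed, 8 reached the minimum level, 4 of them higher and 4 lower. Apoa1, the main protein of high density lipoprotein, was the 1 gene of all pathway lists whose log2 difference exceeded that of Apoe, at 0.99 ± 0.40 (SE). It was at 3.37 and 10.9 FPKM under vehicle and 14.1, 10.8 and 15.5 FPKM under diosmetin, so vehicle replicate 1 alone was low and the groups overlapped. Apoa4 was at 1.81 and 3.88 FPKM under vehicle and 3.69, 3.36 and 3.80 FPKM under diosmetin, again with vehicle replicate 1 alone low. Saa1, an acute-phase apolipoprotein, was at 0.371 and 3.20 FPKM under vehicle and 1.24, 2.42 and 5.56 FPKM under diosmetin, without separation. Clu and Apob, both abundant and named after their values were seen, had log2 differences of 0.08 ± 0.13 and -0.24 ± 0.19 (SE). In this list 0 genes passed over all genes by limma and 2, Apoa1 and Apool, had an unadjusted p under 0.05.

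Among 23 tested lipoprotein receptors and their regulators 13 were higher and 10 lower, with a median log2 difference of 0.05 that was -0.04 without vehicle replicate 1. Cubn, the proximal tubule receptor cubilin that takes up filtered apolipoprotein A-I and other proteins, was at 308 and 253 FPKM under vehicle and 230, 175 and 210 FPKM under diosmetin. All diosmetin libraries were below both vehicle libraries, with a log2 difference of -0.45 ± 0.14 (SE) and an adjusted p of 0.738 by limma. Group ranges were apart for 17.4% of the list (1 gene higher and 3 lower), against 24.5% of all tested genes (18.3% higher and 6.17% lower), and 0 members passed over all genes by limma (1 at an unadjusted p under 0.05, Cubn).

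Lipases and lipid transfer genes had a median log2 difference of 0.0083 over 17 tested genes, 10 higher and 7 lower, and 0 had an unadjusted p under 0.05. Gpihbp1, which holds lipoprotein lipase on the capillary wall, was at 2.60 and 2.46 FPKM under vehicle and 2.26, 5.50 and 4.19 FPKM under diosmetin. As for Lpl itself, diosmetin replicates 2 and 3 stood above both vehicle libraries and replicate 1 did not. Angptl4, a secreted inhibitor of the lipase, was at 19.8 and 20.3 FPKM under vehicle and 49.6, 23.3 and 13.4 FPKM under diosmetin, and so was highest where Lpl was lowest within that group. Lipg, the endothelial lipase gene, was at 1.48 and 0.785 FPKM under vehicle and 2.40, 2.44 and 0.797 FPKM under diosmetin.

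Sterol efflux, storage and endosomal transport genes were split, 8 higher and 9 lower of 17 tested, with a median log2 difference of -0.01 and no overlap for 29.4%, against 24.5% of all tested genes. Tspo, a mitochondrial outer membrane protein that binds cholesterol, was at 38.3 and 46.7 FPKM under vehicle and 55.5, 56.2 and 51.0 FPKM under diosmetin. Lamp2, a lysosomal membrane protein, was at 166 and 160 FPKM under vehicle and 142, 139 and 151 FPKM under diosmetin. Both separated the groups, in opposite directions, and both had an unadjusted p under 0.05 but an adjusted p of 0.738 (limma). Nceh1, a cholesteryl ester hydrolase, had a log2 difference of -0.16 ± 0.12 (SE) with overlapping groups.

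Liver X receptor targets other than the members had a median log2 difference of 0.16 over 19 tested genes, with 12 higher and 7 lower. This median was 0.05 without vehicle replicate 1 and 0.07 with no filter on low values. Acaca, the acetyl-CoA carboxylase that commits carbon to fatty acid synthesis, was at 6.39 and 7.64 FPKM under vehicle and 8.60, 10.01 and 8.84 FPKM under diosmetin, a log2 difference of 0.34 ± 0.11 (SE). Srebf1, the transcription factor gene of fatty acid synthesis and a direct receptor target, was at 12.8 and 20.0 FPKM under vehicle and 16.1, 26.8 and 23.4 FPKM under diosmetin. Scd2, a fatty acid desaturase, was at 35.8 and 46.2 FPKM under vehicle and 45.8, 65.8 and 51.4 FPKM under diosmetin. Acaca separated the groups, whereas diosmetin replicate 1 lay between the vehicle libraries for Srebf1 and just below vehicle replicate 2 for Scd2.

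Group ranges were apart for 8 of these 19 targets (42.1%, against 24.5% of all tested genes), 5 with diosmetin the higher and 3 the lower. The lower ones, named after their values were seen, were Smpdl3a, Me1 and Mertk. Mylip, which encodes a ubiquitin ligase and is a classical target alongside Abca1, had a log2 difference of 0.07 ± 0.19 (SE) and also was named after its value was seen. In this list 0 genes passed over all genes by limma and 1, Acaca, had an unadjusted p under 0.05. Of 16 tested retinoid X receptor partners and coregulators 13 were higher and 3 lower, where 63.9% of all tested genes were higher. Their median was 0.08, and 0.03 after median-of-ratios scaling. Group ranges were apart for 37.5% of this list (5 genes higher and 1 lower), against 24.5% of all tested genes. Ppargc1a, a coactivator of mitochondrial and metabolic genes, had a log2 difference of 0.19 ± 0.08 (SE) there.

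**Figure D4:**
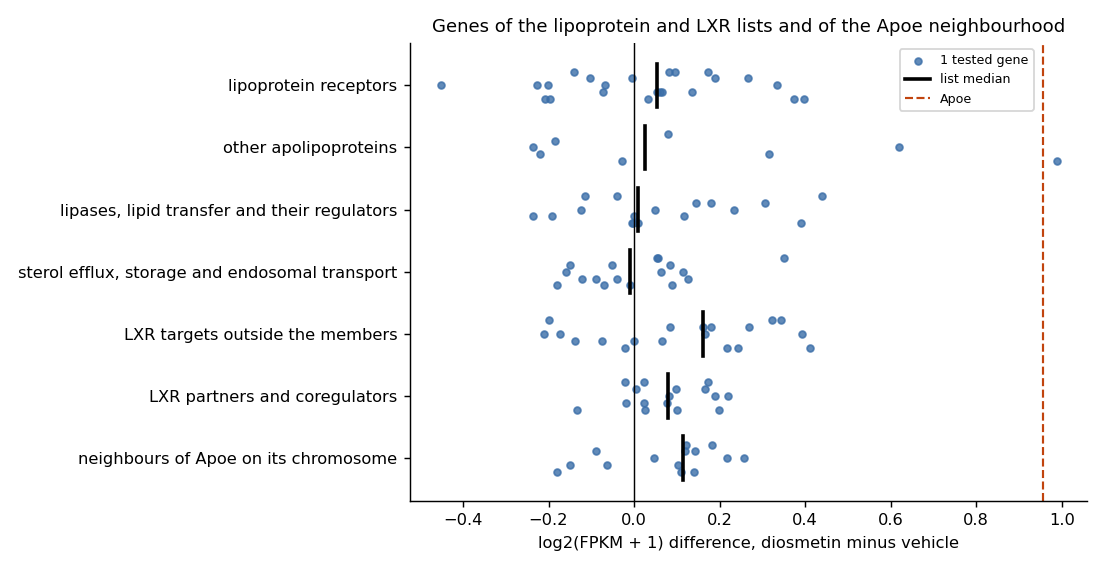
Each blue point is the log2(FPKM + 1) difference, diosmetin minus vehicle, of 1 tested gene in the 7 lists, black bars are list medians and the dashed line marks Apoe at 0.96. List medians lie between -0.01 and 0.16, and Apoa1, at 0.99, is the point to the right of Apoe.

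Over the 112 tested genes of all 7 lists 68 were higher and 44 lower, where 63.9% of all tested genes were higher, and the median log2 difference was 0.06. By limma 0 passed over all genes and 6 had an unadjusted p under 0.05, which is 5.36% against 6.37% of all tested genes. Group ranges were apart for 27.7% of them, against 24.5%.

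Profiles most like that of Apoe came from outside lipoprotein handling. Likeness was the root mean square difference between centred log2(FPKM + 1) values over the 5 libraries, taken over 12279 genes with a mean of at least 1 FPKM. The 8 nearest were Rps18, Aldh1a7, Batf3, Foxi1, Hepacam2, Gzmb, Nrp and Hspa1a, at 0.16 to 0.23, where the median of all genes was 0.48. Rps18, a ribosomal protein gene with processed copies in the genome that the counting may not separate, was at 22.4 and 25.7 FPKM under vehicle and 39.3, 51.4 and 38.8 FPKM under diosmetin. Foxi1, the transcription factor of intercalated cells in the collecting duct, was at 16.0 and 18.0 FPKM under vehicle and 28.2, 28.3 and 24.0 FPKM under diosmetin. Among the members Lpl came closest to Apoe, at rank 560 with a distance of 0.38, and Apom was at rank 12140.

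**Figure D5:**
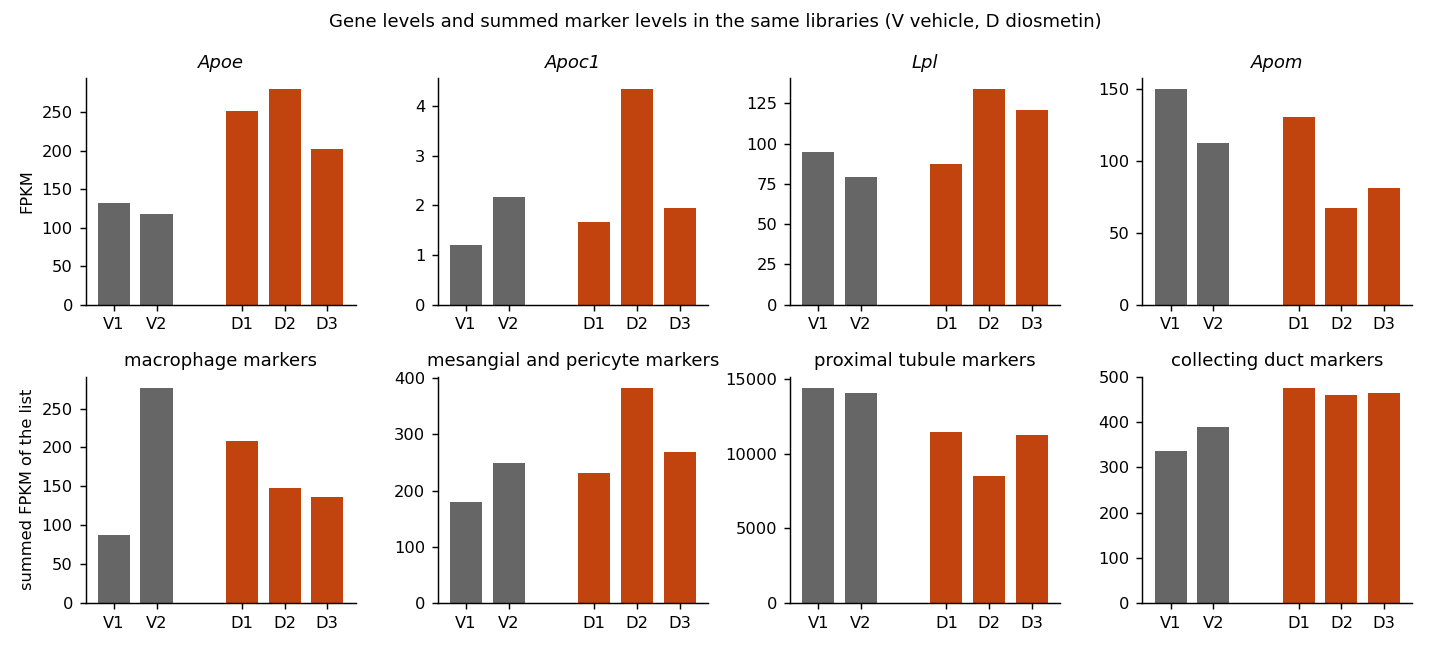
The upper row gives FPKM of Apoe, Apoc1, Lpl and Apom in each library (V vehicle, D diosmetin), and the lower row gives the summed FPKM of 4 marker lists in the same libraries, each axis starting at 0. The macrophage sum is highest in vehicle replicate 2, at 277, where Apoe is lowest, at 118 FPKM. It is lowest in vehicle replicate 1, at 87.8, where Apoe is at 132 FPKM. The proximal tubule sums of the diosmetin libraries, at most 11473, lie below those of vehicle, with Kap the largest contributor.

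In bulk tissue a change in the number of cells of a type and a change in RNA per cell cannot be told apart, so marker levels are given beside these results. Kidney identity was clear, with 14 proximal tubule markers summing to 8524 to 14439 FPKM per library. All 18 macrophage markers were measured, with Gpnmb listed at 0 in vehicle replicate 1, and their sum was 87.8 and 277 FPKM under vehicle and 209, 148 and 136 FPKM under diosmetin. This sum was highest in vehicle replicate 2, where Apoe was lowest, at 118 FPKM. It was lowest in vehicle replicate 1, where Apoe was at 132 FPKM. The part of the macrophage levels in the Apoe values was not tested. The proximal tubule sum was 14439 and 14095 FPKM under vehicle and 11473, 8524 and 11241 FPKM under diosmetin. Its largest contributor was Kap, at 4708 and 6153 FPKM under vehicle and 2551, 2808 and 4751 FPKM under diosmetin. The mean log2(FPKM + 1) value of the list overlapped between the groups, at 9.14 and 8.82 under vehicle and 8.85, 8.27 and 8.57 under diosmetin. The sum was lowest in diosmetin replicate 2, as was Apom, and the list itself holds Cubn. Its part in the Apom and Cubn values was not tested. The collecting duct sum of 11 markers was 336 and 389 FPKM under vehicle and 477, 460 and 465 FPKM under diosmetin, and its part in the Apoe values was not tested either.

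The 10 mesangial cell and pericyte markers summed to 180 and 249 FPKM under vehicle and 231, 383 and 268 FPKM under diosmetin, with Ren1, the renin gene, the main contributor at 85.8 to 257 FPKM. Fat and adrenal tissue can adhere to a kidney sample. The 11 adipocyte markers summed to 54.2 and 63.3 FPKM under vehicle and 56.2, 66.8 and 61.8 FPKM under diosmetin. Most of that sum came from Adipor2 and from Fabp4 (15.3 to 20.9 FPKM), with Lipe at 6.05 to 7.36 FPKM and Plin4 at 2.00 to 3.45 FPKM, while the fat-restricted Adipoq did not exceed 0.084 FPKM and Plin1 0.011 FPKM. The 10 adrenal cortex markers summed to 19.7 and 20.3 FPKM under vehicle and 20.6, 22.1 and 20.9 FPKM under diosmetin, higher in all 3 diosmetin libraries by a small margin. Fdx1 (13.1 to 14.8 FPKM), Akr1b7 (2.61 to 5.35 FPKM) and Star (2.36 to 3.59 FPKM) made up nearly all of it, while the steroid synthesis gene Cyp11a1 did not exceed 0.054 FPKM and Cyp11b2 was listed at 0 in all libraries. The 8 measured T and B lymphocyte markers summed to 4.95 and 6.55 FPKM under vehicle and 6.94, 7.17 and 9.01 FPKM under diosmetin. The 6 urothelium markers summed to 0.520 and 1.45 FPKM under vehicle and 1.51, 1.74 and 2.85 FPKM under diosmetin. Only 1 of the 6, Krt20, had a mean of at least 0.5 FPKM. Krt20 (0.134 to 2.19 FPKM) and Upk1a (0.142 to 0.533 FPKM) made up nearly all of the sum. The groups overlapped for Krt20 but not for Upk1a, which was higher under diosmetin. Upk1b, Upk2 and Upk3a were at most 0.0801 FPKM, and Krt5 was listed at 0 in all libraries. The lymphocyte and urothelium sums were both higher in all diosmetin libraries, as Apoe was. The part of the adrenal, lymphocyte and urothelium levels in the Apoe values was not tested. Of the 14 hepatocyte markers, Alb was at 4.99 to 9.01 FPKM and Ahsg at most 0.077 FPKM. The 14 summed to 155 and 110 FPKM under vehicle and 137, 101 and 117 FPKM under diosmetin, overlapping between the groups. The largest contributor was Cyp2e1, at 94.9 and 53.0 FPKM under vehicle and 84.1, 53.3 and 55.5 FPKM under diosmetin. The list also holds Apoa1.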

How the data were processed

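Per the labels' protocols, kidney total RNA with an integrity number of at least 7 was cleared of ribosomal RNA and sequenced as stranded paired-end libraries. The authors deposited FPKM values for 21878 genes in 5 libraries. GRCm38 is the build in the submitters' processing notes, and no source used here names the aligner, the counter or the annotation release. Sample codes tied columns to labels, and the treatment label gave the groups.

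Values were taken as log2(FPKM + 1), which understates changes of low genes. A mean of at least 0.5 FPKM was met by 13290 genes, which were fitted with limma (trended variance prior, 3 residual degrees of freedom) in two-sided tests, calling genes at 0.05 after Benjamini-Hochberg adjustment. Each difference is diosmetin minus vehicle. The procedure was tested on simulated data. Members and lists were chosen with earlier results of these data known, and no list counts a member. Named genes are all members, up to 3 genes of each list (mean of 1 FPKM or more) with the largest absolute log2 difference, and the 8 genes most like Apoe in profile. Neighbours of Apoe may be named freely. Some genes under this rule are not reported here by name, while counts include them. Marker genes and ratios between genes, and any other gene named in the text, were chosen after values were seen or to describe tissue makeup.

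Depth was estimated from rare transcripts, whose values step by whole fragments. Among 1533 genes averaging under 0.05 FPKM, 76.4% took whole multiples of their lowest value within 2%. With GENCODE M21 transcript lengths this gave 38.9 and 49.2 M fragments for vehicle replicates 1 and 2, and 47.5, 43.5 and 45.7 M for diosmetin replicates 1, 2 and 3. Fragments behind a gene assume its longest transcript. Gene positions are from GENCODE M21 on GRCm38. Transcripts annotated across Nr1h3 and Lrp1 could share fragments with them. Alternatives were a pseudocount of 0.1, no filter, a minimum of 1 FPKM, median-of-ratios scaling, TPM rescaling, no variance trend and leaving out each library. The tools were R 4.3.3 with limma 3.58.1, and Python 3.11.15 with pandas 2.3.3, numpy 2.4.6 and matplotlib 3.10.9.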

Additional observations from a re-analysis of the deposited data

How the results depend on the processing

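With limma the count over all genes was 0 under all 11 alternatives, beside 847 genes at an unadjusted p under 0.05, a count that ran from 385 (without diosmetin replicate 2) to 1464 (without vehicle replicate 2) when each library was left out. Where a vehicle library was left out, the remaining one was assumed to vary like the diosmetin group. The log2 difference of Apoe ran from 0.85 to 1.09 under the 10 alternatives run for it. With its groups apart, leaving out a library could not change its sign. The filter settings cannot change the difference of any single gene. Apoc1, Apom, Lpl and Nr1h3 kept their signs in all 10, while Apod, Abca1, Abcg1, Nr1h2 and Lrp1 changed sign in 1 to 3 of 10.

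Median-of-ratios scaling moved the median of all tested genes from 0.043 to -0.0040, that of sterol efflux, storage and transport genes to -0.064 and that of receptor partners and coregulators to 0.028. Medians ran, when each library was left out, from -0.038 to 0.080 for lipoprotein receptors, from -0.010 to 0.081 for lipases and lipid transfer genes, from 0.046 to 0.23 for other receptor targets and from -0.069 to 0.22 for the neighbours of Apoe. The causes were not tested. No paired analysis was possible because the labels give no replicate numbers shared by the groups. Depth limits Apod and Apoc1 most.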
